A study of Mus musculus with 2 samples.

Results

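The fibulins and the proteins of elastic microfibrils were followed in stromal cells of the mouse uterus. The group was a list of 10 genes, namely the fibulins Fbln1, Fbln2, Fbln5 and Efemp2, the microfibril-associated proteins Mfap2, Mfap4 and Mfap5, the fibrillin Fbn1, elastin (Eln) and Emilin1, and it took in every probe set that the array's annotation pairs with exactly 1 of these symbols. That gave 12 probe sets for 8 of the 10 genes, out of 20380 probe sets with 1 symbol for 12393 genes. Efemp2 and Fbn1 had no probe set named in this way and have no value here. The list was chosen by measured values, the log2 ratios of these same 2 arrays, so the values of its genes are a description and not a test.

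RNA came from uterine stromal cells on day 5 of pregnancy, released from the uterine horns by enzymatic digestion and pooled over 3 animals per genotype. The platform was the Affymetrix Mouse Genome 430A 2.0 array, with 1 array for floxed controls and 1 for a conditional knockout. In the knockout a floxed gene was to be deleted in the uterus by PRcre, a Cre recombinase driven by the progesterone receptor promoter, which is active in uterine epithelium and muscle as well as stroma. The sources disagree on the gene, since the sample titles give Hif1 flox and Hif1 cKO, the genotype field gives Hif2 alpha-intact and Hif2 alpha-null, and the breeding note crosses Hif1 floxed mice to ablate Rac1. The second array is therefore called knockout-labelled. Strain and age of the mice are not given in the sources used here.

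Elastic fibres are built on microfibrils, which are strings of fibrillin that carry the small glycoproteins encoded by Mfap2 and Mfap5. Tropoelastin, the product of Eln, is deposited on this scaffold with the help of fibulin-4 (Efemp2) and fibulin-5 (Fbln5) and is then crosslinked by lysyl oxidases. Microfibrils also occur without elastin, and through the latent TGF-beta binding proteins they store TGF-beta in the matrix. The stromal matrix of the uterus is remodelled while the stroma decidualizes around an implanting embryo.

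Promoter sequences are shown for the 3 measured genes that had an entry and whose annotated gene begins at the start used. They are Fbln1 and Mfap2, the lowest of the members, and Fbln5, the least different. Each is the 250 bases before the gene's start, 5′ to 3′ on the gene's own strand, from RefSeq's annotation of GRCm38.p6. Capitals mark ACGTG and GCGTG on either strand, which are the core letters of the element that HIF proteins bind. The windows lie at chr15:85205699-85205948 on the plus strand for Fbln1, at chr4:141010174-141010423 on the plus strand for Mfap2 and at chr12:101819120-101819369 on the minus strand for Fbln5.
Fbln1: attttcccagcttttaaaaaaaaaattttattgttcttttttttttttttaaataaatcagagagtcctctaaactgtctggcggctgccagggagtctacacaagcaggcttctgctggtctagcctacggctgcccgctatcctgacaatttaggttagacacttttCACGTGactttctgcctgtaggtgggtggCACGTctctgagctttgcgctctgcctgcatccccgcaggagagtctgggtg
Mfap2: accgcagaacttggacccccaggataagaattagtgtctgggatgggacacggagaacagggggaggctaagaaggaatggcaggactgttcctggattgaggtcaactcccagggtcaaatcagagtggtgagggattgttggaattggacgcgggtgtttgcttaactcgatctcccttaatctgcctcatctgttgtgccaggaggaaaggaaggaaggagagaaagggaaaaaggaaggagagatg
Fbln5: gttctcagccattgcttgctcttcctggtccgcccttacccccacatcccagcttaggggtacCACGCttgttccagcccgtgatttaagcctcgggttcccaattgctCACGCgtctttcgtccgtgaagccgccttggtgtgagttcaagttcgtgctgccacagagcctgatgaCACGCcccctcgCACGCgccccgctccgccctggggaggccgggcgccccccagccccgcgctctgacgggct
The Fbln1 window held 2 separate matches, which begin 81 and 52 bases before the start, and the first of them reads CACGTG, which is a match on both strands. The Mfap2 window held none. The Fbln5 window held 4, all of GCGTG, beginning 187, 141, 73 and 61 bases before the start. Of 27025 windows of the same length, 1 for each gene in the table, 38.6% held at least 1 of these letter strings. None of the 3 windows held TATAAA, which 13.0% of all windows hold, and GGGCGG, the letters of a GC box, was present only in that of Fbln5, 2 times, against 33.0% of all windows. Promoter entries were matched for 7 of the 10 genes, and those of the other 4 are not shown, as Efemp2 and Fbn1 were not measured and the annotated genes of Fbln2 and Emilin1 reach upstream of the start used. A match is a string of letters and no evidence of binding.

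Of the 8 measured genes, all were lower on the knockout-labelled array by some amount, as were 4754 of the 8593 genes compared. Of the 8, 5 were at least 2-fold lower: Fbln1, Fbln2, Mfap2, Mfap4 and Mfap5. None was at least 2-fold higher. The 5 are 62.5% of the 8, where 13.0% of the 8593 genes compared lay at least 2-fold lower and 6.21% lay at least 2-fold higher. The median log2 ratio, knockout-labelled minus control, was -1.87 over the 8 genes and -0.10 over all genes. Signals are MAS5 intensities on a linear scale. They were raised to a floor of 19.7 before log2, and a gene was compared if it was above the floor on at least 1 array. The probe set with the highest mean log2 signal, called the brightest, stood for a gene that has several. By probe set, 11 of the 12 were compared, of which 6 were lower by at least 2-fold and none was higher by that much, where the shares over all 13284 probe sets compared were 13.9% lower and 6.84% higher. Each group is a single array, so nothing here carries a p-value or a spread between animals, and each ratio describes these 2 arrays. The available error is how far 2 probe sets for one gene disagree, which gave an SD of 0.64 for a log2 ratio over 2660 genes.

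Both arrays were scaled alike by the authors, with a trimmed mean signal of 150.1, and their median signals were 41.8 (control) and 34.4 (knockout-labelled). Of the genes at least 2-fold apart, 67.7% were lower on the knockout-labelled array as deposited, 53.6% after quantile normalization, 54.7% after removal of the trend of ratio on signal and 36.9% after median centring, and the median log2 ratio of all genes went from -0.10 to 0.03, 0.0025 and 0.16, in that order. The ends of the RNA also differed, as the signal at the 3' end over that at the 5' end was 2.27 and 16.0 for b-actin and 1.49 and 7.25 for Gapdh, with the control value first. This difference lies along the genotype labels, so it and the genotype cannot be told apart, and where the members' probes lie along their transcripts was not analysed here. No gene named as a target was near the floor in the knockout-labelled sample at its brightest probe set, with signals of 721 and 1544 for Hif1a, 59.4 and 78.1 for Epas1 (Hif2 alpha) and 1038 and 757 for Rac1. At a dimmer probe set Rac1 had signals of 664 and 332, at least 2-fold lower as deposited. Hif1a was higher at dimmer probe sets too, with signals of 114 and 297 (log2 ratio 1.38) and 27.0 and 38.7 (0.52). Hif1a and Rac1 each also had a probe set at the floor on both arrays. Whether any of these probes lie in the deleted exons was not analysed here.

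**Figure D1:**
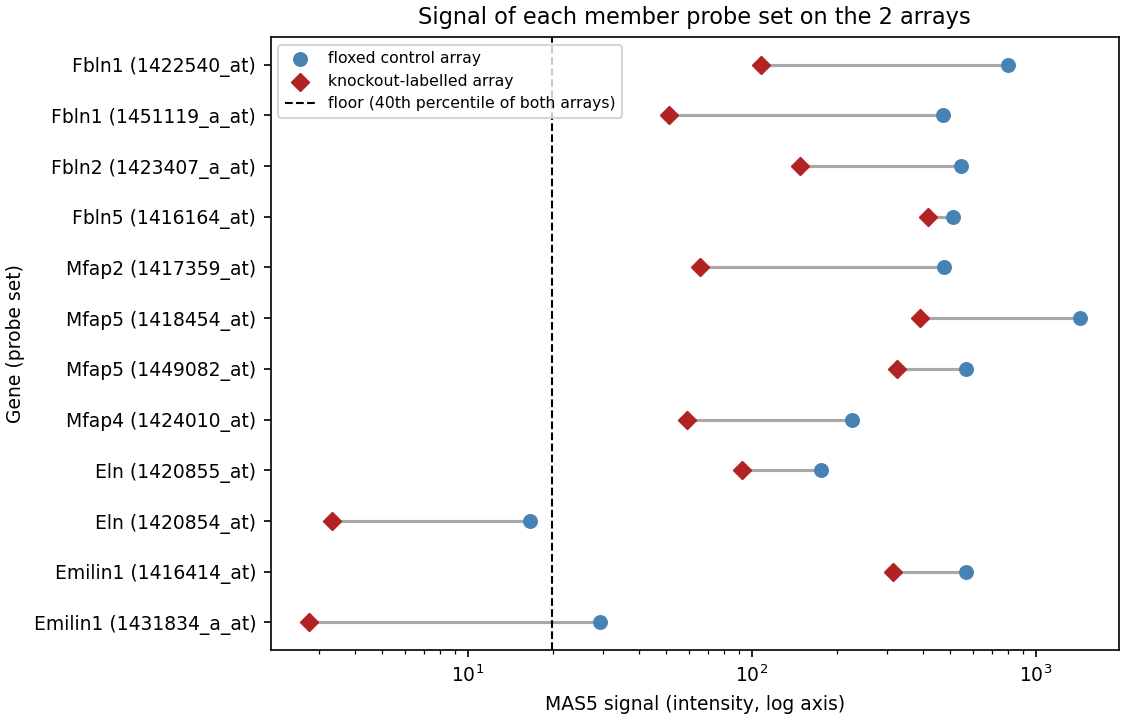
MAS5 signal (log axis) of the 12 member probe sets on the floxed control array (circles) and the knockout-labelled array (diamonds), joined by a line, with the floor of 19.7 dashed. Every diamond lies to the left of its circle, with the longest lines above the floor at Fbln1 and Mfap2, the shortest at Fbln5, and 1 probe set of Eln below the floor on both arrays.

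Among the fibulins the difference was large for Fbln1 and Fbln2 and small for Fbln5. Fbln1 encodes fibulin-1, a calcium-binding glycoprotein of basement membranes, fibronectin fibrils and elastic fibres. Its brighter probe set read 801 in the control and 108 in the knockout-labelled sample, which is 13.5% of the control signal, or 7.41-fold lower (log2 ratio -2.89). The other probe set had signals of 471 and 51.1, 9.21-fold lower (log2 ratio -3.20). The 2 probe sets differed by 0.31 on the log2 scale, less than the SD of 0.91 for such a difference over all genes with 2 measured probe sets, and Fbln1 held rank 6 from the lowest among the 8593 genes.

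Fbln2 encodes fibulin-2, a larger relative that binds fibronectin, laminins and versican. Its single probe set had signals of 544 and 148, 3.67-fold lower (log2 ratio -1.88), at rank 144 from the lowest. Fbln5 encodes fibulin-5, the short fibulin that ties tropoelastin to microfibrils and to integrins on the cell. Its signals were 509.5 and 417, 1.22-fold lower (log2 ratio -0.29), which is within the SD of a single ratio, and 40.5% of all genes had a lower ratio. The log2 ratio of Fbln1 was 2.60 below that of Fbln5. A constant scaling of either array leaves that distance as it is, and it was 2.52 to 2.60 when quantile normalization and trend removal are counted too. The log2 ratio of Fbln2 was below that of Fbln5 by 1.59, or by 1.51 to 1.59 over the same scalings.

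Another short fibulin, Efemp1 (fibulin-3), which was not on the list of 10, read 1862 in the control and 2397 in the knockout-labelled sample (log2 ratio 0.36). Over the scalings that ratio was 0.06 to 0.64. The log2 ratio of Fbln1 lay 3.25 below it as deposited and at least 2.92 below it in the other scalings. Fbln7, a distant relative, read 103 and 143 (log2 ratio 0.47); it is named although chosen with its value known. Of the 5 fibulin genes with a value, the long fibulins Fbln1 and Fbln2 were thus past 2-fold and the others were not. That split is a description only, as Fbln1, Fbln2 and Fbln5 are on the list chosen by these ratios and Efemp1 and Fbln7 are not. The short fibulin Efemp2 had no value.

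**Figure D2:**
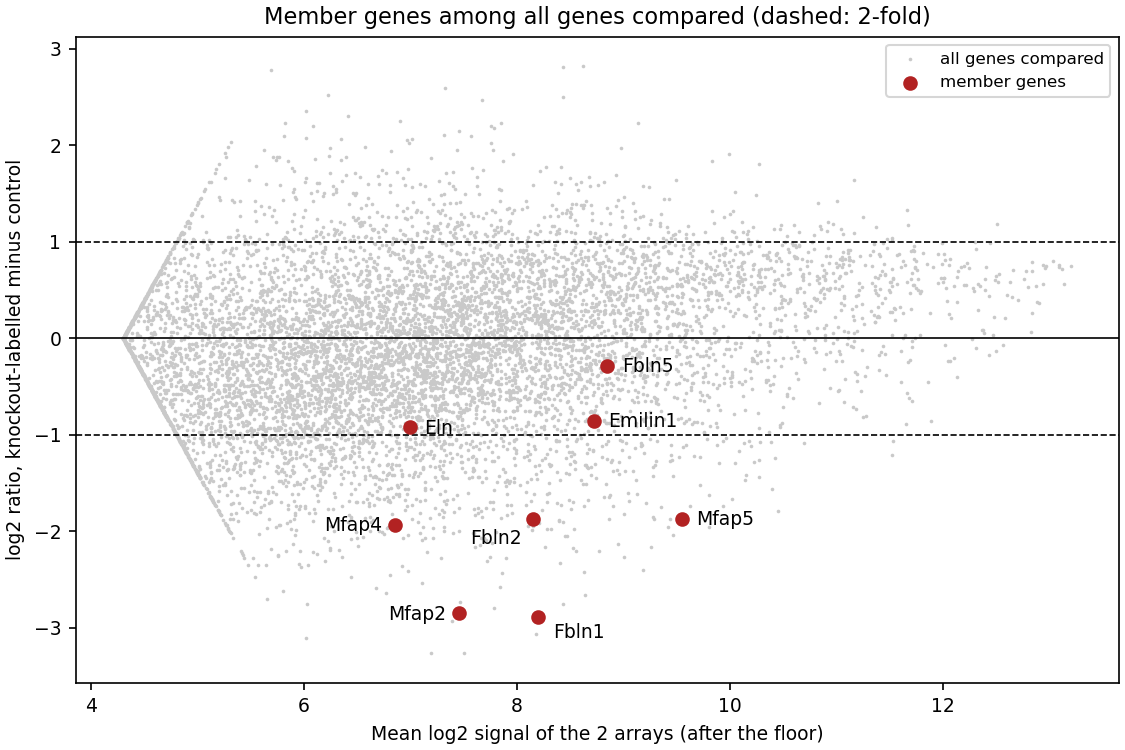
Log2 ratio, knockout-labelled minus control, against the mean log2 signal of both arrays for the 8593 genes compared (grey) and the 8 member genes (red), with 2-fold dashed and genes at the floor on 1 array along the slanting edges at the left. Fbln1 and Mfap2 lie at the lower edge of the cloud, Fbln2, Mfap4 and Mfap5 lie together near -1.9, and Fbln5 lies inside it.

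The glycoproteins that sit on fibrillin microfibrils were all lower at every probe set. Mfap2 encodes MAGP-1, a small protein that binds fibrillin along the microfibril and also binds TGF-beta and BMP ligands. It had signals of 474 and 65.6, which is 13.9% of the control signal, or 7.22-fold lower (log2 ratio -2.85), at rank 7 from the lowest. It rests on a single probe set.

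Mfap5 encodes MAGP-2, its close relative, which carries an integrin-binding motif. Its brighter probe set had signals of 1435 and 392, 3.66-fold lower (log2 ratio -1.87), at rank 152. The other had signals of 569.9 and 324, 1.76-fold lower (log2 ratio -0.82), so Mfap5 was past 2-fold at 1 of its 2 probe sets. They differed by 1.06, more than the SD of 0.91 for such differences. The ratios of Mfap2 and of the brighter Mfap5 probe set lay 0.98 apart, 0.73 after allowing for quantile normalization and trend removal. That distance is of the size of the disagreement between probe sets of a single gene.

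Mfap4 encodes a fibrinogen-related protein that binds elastin and fibrillin and is prominent around vessels and smooth muscle. It had signals of 226 and 59.3, 3.82-fold lower (log2 ratio -1.93), at rank 127 and from a single probe set. The order from the lowest was thus Fbln1, Mfap2, Mfap4, Fbln2, Mfap5, Eln, Emilin1 and Fbln5. Against that SD of 0.91 for a difference, Fbln1 and Mfap2 lay closer to each other, as did Mfap4, Fbln2 and Mfap5 among themselves and Eln, Emilin1 and Fbln5 among themselves. The steps between these groups, from Mfap2 to Mfap4 and from Mfap5 to Eln, were 0.92 and 0.95 as deposited. Both are barely over that SD and under the root mean square of 0.99 for the same differences, so neighbouring groups are not separated by this error. Mfap2 and Eln, of the outer groups, lay 1.93 apart.

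Elastin and its surface protein were lower by less than 2-fold. Eln had signals of 176 and 92.6 at its brighter probe set, 1.90-fold lower (log2 ratio -0.92). Its other probe set, at 16.6 and 3.33, was below the floor on both arrays and gives no ratio; with the floor at the 25th percentile or with a pseudocount it gave log2 ratios of -1.28 and -1.40. The ratio of Mfap2 lay 1.93 below that of Eln. Emilin1, a glycoprotein at the interface of elastin and microfibrils, which binds integrins and restrains the maturation of TGF-beta, had signals of 568 and 314, 1.81-fold lower (log2 ratio -0.86). Its other probe set had signals of 29.2 and 2.76, the second below the floor, and was at least 1.48-fold lower. With no floor and a pseudocount of 4.70 that probe set gave a log2 ratio of -2.18, and with the floor at the 25th percentile -2.10, so the size of its difference was set by the floor. Under either of these settings 8 member probe sets, in place of 6, were past 2-fold lower.

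The members are not dim genes. By mean log2 signal 3 of the 8 lay in the brightest of 5 equal groups of genes, 3 in the next and 2 below. In the brightest group the median log2 ratio was 0.31, and 6.69% of its 1719 genes lay at least 2-fold lower. In the dimmest group it was -0.24.

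The calls at 2-fold held in the scalings tried. After quantile normalization, median centring or removal of the trend with signal, the same 5 genes were at least 2-fold lower, against 9.54%, 7.79% and 9.50% of all genes, respectively. At a threshold of 3-fold there were still 5 members, where 3.84% of all genes were that much lower, and at 1.5-fold there were 7, all but Fbln5, where 26.4% were. The log2 ratio of Fbln5 came closest to 0 after median centring, at -0.01, where the other 7 genes lay between -2.61 and -0.58. In these scalings every member probe set that was compared kept a ratio below 0.

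**Figure D3:**
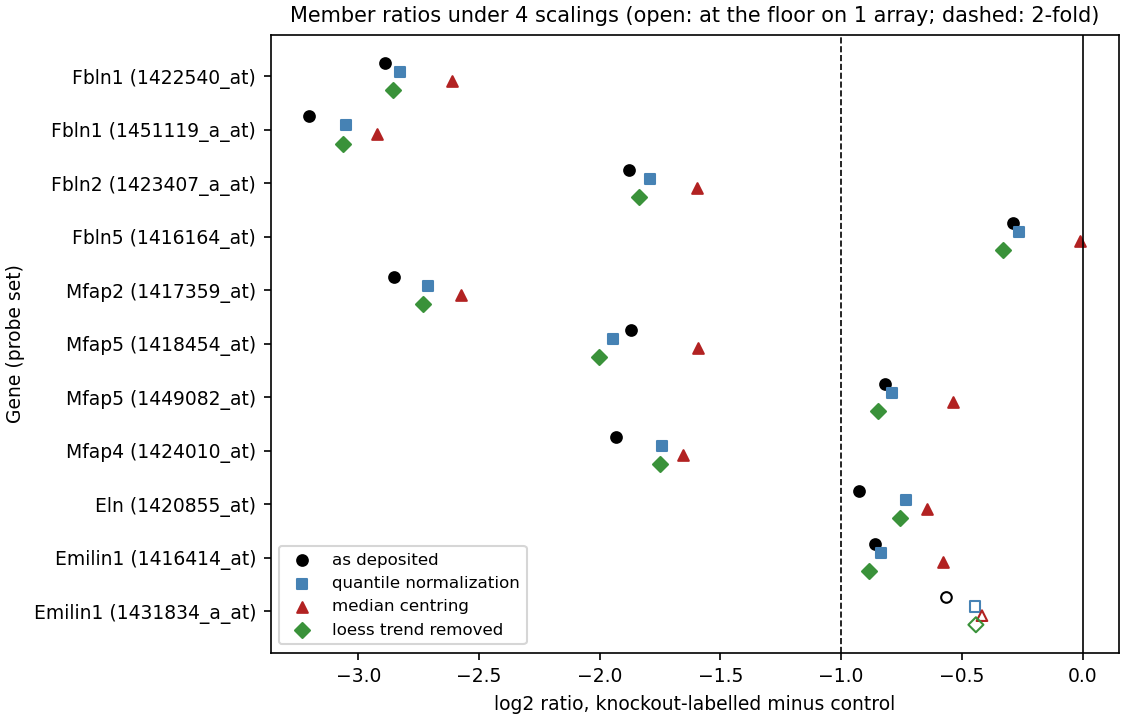
Log2 ratio, knockout-labelled minus control, of the 11 member probe sets compared, as deposited and after quantile normalization, median centring and removal of the trend with signal, with 2-fold lower dashed and open symbols for the Emilin1 probe set at the floor on 1 array. The symbols of a probe set stay close together, and Fbln1, Fbln2, Mfap2, Mfap4 and the brighter Mfap5 probe set lie left of the dashed line under all 4.

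Other genes listed for a role in or around the elastic fibre, called elastic fibre genes for short, went both ways. Of 37 further elastic fibre genes compared, from 50 with a named probe set in 8 lists by role, 4 (10.8%) passed 2-fold downward and 1 (2.70%) upward, beside 13.0% and 6.21% of all genes. Their median log2 ratio was -0.26, and after median centring 0.02. Many are not parts of the fibre, as those compared include 3 TGF-beta ligands, 6 cell receptors, 7 proteases and 9 matrix partners. These shares and medians thus do not describe the fibre's own proteins. The lists were not ranked by a test. As the members were chosen by their ratios, a distance between them and these lists is a description only.

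Of 3 crosslinking enzymes compared, Loxl1, the lysyl oxidase that fibulin-5 brings to elastin, was lower, with signals of 759 and 358 (2.12-fold, log2 ratio -1.08), a difference that was 0.80 after median centring and then under 2-fold. Lox, the founding member, picked with its value known, had signals of 603 and 615 (log2 ratio 0.03) and a log2 ratio of 0.16 at its next probe set. Loxl4 was at the floor on both arrays.

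Among the latent TGF-beta binding proteins Ltbp4, a partner of fibulin-5 in elastic fibre assembly, had signals of 119 and 48.0, 2.49-fold lower (log2 ratio -1.32). It was 1 of 3 compared and the only one past 2-fold at its brightest probe set, and with the floor at the 60th percentile it was at -0.85, under 2-fold. The ligands Tgfb2 and Tgfb3 had log2 ratios of 0.17 and -0.89, with further probe sets of Tgfb2 at 0.54 and -0.26, and none of the 3 ligands was past 2-fold.

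Of 4 other members of these protein families none was past 2-fold. Mfap3, which shares a name but is a membrane protein outside the microfibril glycoproteins, had signals of 346 and 264 (log2 ratio -0.39). Fbn2, the second fibrillin and, with Fbn1 not measured, the only one with a value, was named after its value was seen. It read 154 and 99.7, and the log2 ratio of -0.63 is within the SD of a ratio. The 2 measured ADAMTS-family proteins of the microfibril, Adamts10 and Adamtsl4, had log2 ratios of -0.97 and -0.47.

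Of 6 receptors compared, 1 passed 2-fold upward and none downward at the probe set of highest mean log2 signal, although 2 of 4 probe sets of Itgb5 did pass it downward (-1.44 and -1.83). Sdc4, a heparan sulfate receptor for the matrix, had signals of 480.2 and 962 (log2 ratio 1.00) at the brightest probe set and 551 and 572 (0.05) at the other, and its ratio at the brightest fell under 2-fold after quantile normalization (0.97) and trend removal (0.89). None of 7 elastin-degrading proteases was past 2-fold, and the brightest, Mmp2 and Ctsl, had log2 ratios of 0.45 and -0.52, with -0.31 at the other probe set of Mmp2. Of 9 matrix partners of fibulins, Lama5, a laminin chain, was 2.49-fold lower (signals 58.0 and 23.3, log2 ratio -1.32), and Tnc, tenascin-C, was 2.09-fold lower (signals 139 and 66.7, log2 ratio -1.06). Tnc was under 2-fold after quantile normalization (-0.85), trend removal (-0.85) and median centring (-0.78), and this Lama5 probe set was not compared with the floor at the 60th percentile. The partners versican (Vcan) and fibronectin (Fn1), chosen after their values were seen, stood at 0.80 and -0.03 (log2 ratio, brightest probe set).

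**Figure D4:**
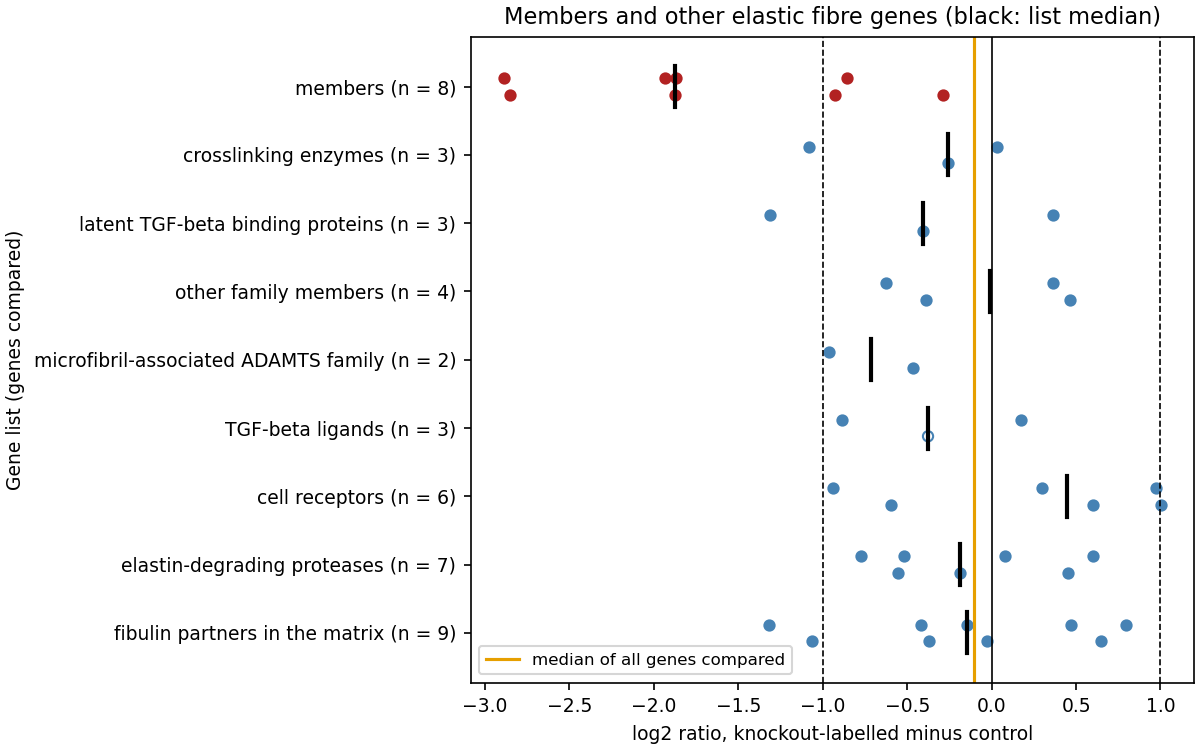
Log2 ratio, knockout-labelled minus control, of the 8 members (red) and of the other elastic fibre genes compared in 8 lists (blue), 1 point per gene at its brightest probe set, with list medians in black, the median of all genes in orange, 2-fold dashed and an open symbol for a gene at the floor on 1 array. The members' median of -1.87 lies left of the dashed line, and all other list medians lie between -0.72 and 0.45. The members were chosen by these same ratios, so their distance from the other lists is a description and not a test.

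The digest holds more than stromal cells, and markers of several other cell types were lower beside the members. The 15 stromal markers were all above the floor on at least 1 array, with Esr1 at the floor on the control array alone. Of them 1 was lower by at least 2-fold, the median log2 ratio was 0.06, and their summed signal was 34738 (control) and 47147 (knockout-labelled), all from brightest probe sets. Dimmer probe sets of some of these genes, chosen after their values were seen, were far lower. They were those of Pdgfrb (-2.09, against 0.46 at the brightest), Pdgfra (-1.70, against 0.00) and Col1a1 (-1.26, against 0.59). Dimmer probe sets of Nr2f2 were higher (0.81 and 0.70, against -0.54), and those of Col1a2 and Col3a1 were at 0.01 and 0.15. The level of the stromal list thus depends on the probe sets used. Of 14 markers of smooth muscle and pericytes, 4 passed 2-fold downward and none upward (median -0.80, summed signals 13607 and 12965), and none was at the floor on either array. Of 12 endothelial markers, 5 passed it downward and none upward (median -0.89, summed signals 4184 and 2597), and Tie1 reached the floor in the knockout-labelled sample. Of 12 myeloid markers, 6 passed it downward and 2 upward (median -1.08, summed signals 4187 and 3628), and Aif1 reached the floor in that sample too. Of 11 epithelial markers compared, 3 passed it downward and 1 upward (median -0.51, summed signals 2425 and 1990), with Krt19 at the floor on both arrays and Ltf on the control array. The mesothelial markers Msln and Upk3b did not exceed the floor on either array. Of the 2 compared, Gpm6a was at the floor on the control array and at least 2.30-fold higher on the other. Wt1 read 461 and 395 (log2 ratio -0.22). None passed 2-fold downward (median 0.49, summed signals 492 and 460.1 over the 5 with a named probe set). Wt1 made up most of both sums, and the median joins its ratio to a bound, so these values say little about mesothelium. Of all genes compared, 13.0% passed 2-fold downward and 6.21% upward. These lists depend on the probe sets used too, as further genes picked with their values known show. C1qb, counted as upward in the myeloid list at 1.58, had 0.54 and -2.68 at its other probe sets. Csf1r had 0.13 and -0.88, against 0.44 at the brightest. In the smooth muscle list, Myh11 had 1.21, against -0.78, and Rgs5 had 0.62, -0.42 and -0.76, against 0.57. Single markers, chosen after their values were seen, lay as low as the members, with log2 ratios of -2.93 for Fcer1g, -2.73 for C1qa, -2.34 for Pecam1 and -2.20 for Krt18. Others of the same lists were higher, such as Ptprc (1.74, on the myeloid list though not specific to myeloid cells), Plvap (0.32, endothelial) and Ehf (1.37, epithelial). At brightest probe sets, ratios above 0 were found for 4 of 12 myeloid, 2 of 12 endothelial and 5 of 11 epithelial markers. In pooled cells a smaller number of cells of one type and less RNA per cell cannot be told apart, and the part of these other cells in the members' difference was not tested.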

How the data were processed

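The authors deposited 1 intensity per probe set on a linear scale, a MAS5 signal made in Affymetrix Expression Console version 1, per the submitters' processing notes, from RNA extracted with Trizol and labelled with the Affymetrix 3' Express kit, per the labels' protocols. Detection calls were not used here. Control probe sets, 64 in number, were left out of gene results. Gene names came from the platform annotation, updated by Entrez identifier through the RefSeq table of GRCm38.p6 (20364 of 20380 matched). A floor of 19.7, the 40th percentile over both arrays, was applied before the log2 scale, and 3800 genes at the floor on both arrays were left out. Genes were counted at 2-fold, beside 1.5-fold and 3-fold. Alternatives were quantile normalization, median centring, a loess trend of span 0.4 (statsmodels 0.14.6), floors at the 25th and 60th percentiles, a pseudocount of 4.70 in place of the floor, a gene's median over its probe sets, and no _s_at or _x_at probe sets. The rule for names was all members, then up to 4 genes of each elastic fibre list past 2-fold, or the 2 brightest, and genes named outside it are marked. Members and lists were chosen with earlier results of these data known. The counting of genes past 2-fold was tested on simulated data. Changes larger than 2-fold were planted in bright probe sets, with noise far below the SD of 0.64 for a log2 ratio. That run checks the counting only and does not show how sure a 2-fold call is at the error of these arrays. With 1 array per group no test was run, and the number of arrays limits the precision.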

Additional observations from a re-analysis of the deposited data

How the results depend on the processing

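Fbln1, Fbln2, Mfap2, Mfap4 and Mfap5 stayed at least 2-fold lower at their brightest probe sets under the 7 alternatives of scaling, floor, pseudocount and probe suffix. Leaving out _s_at and _x_at probe sets could not change these genes, as no member probe set has such a suffix. The lower floor could not either, as their brightest probe sets read above 19.7 on both arrays. Neither setting is thus a check of these genes. No member turned its sign. The members' median log2 ratio of -1.87 was -1.60 after median centring and -1.61 with a median taken over probe sets. For the other elastic fibre genes the median of -0.26 was 0.022 after median centring, -0.026 with the floor at the 60th percentile, -0.14 with a pseudocount, -0.38 with the median over probe sets and -0.38 without _s_at and _x_at probe sets. Of these genes the 4 at least 2-fold lower became 2 after median centring, 2 with the floor at the 60th percentile, 10 at 1.5-fold and 0 at 3-fold. The 1 at least 2-fold higher became 3 after median centring, 6 at 1.5-fold, and 0 at 3-fold, after quantile normalization, after trend removal, with a pseudocount and with the median over probe sets. Over all genes the 1119 lower became 670 after median centring, 601 with the floor at the 60th percentile, 2268 at 1.5-fold and 330 at 3-fold, and the 534 higher became 1146 after median centring, 1592 at 1.5-fold and 106 at 3-fold. The cause was not tested, except that a higher floor and a higher threshold leave fewer genes by construction. No paired analysis was possible because each group has 1 array. Signals near the floor limit the second probe sets of Eln and Emilin1.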

Other observations

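Several elastic fibre genes had probe sets that went opposite ways, so that their direction was not settled, and they were chosen here after their values were seen. Itgb5, the beta subunit of an integrin that binds vitronectin and fibulin-5, had log2 ratios of 0.30, -0.39, -1.44 and -1.83 at 4 probe sets, where the first has the highest mean log2 signal and the third the highest signal on the control array (526). Ltbp3, a latent TGF-beta binding protein, had signals of 1320.0 and 1696 (log2 ratio 0.36) at 1 probe set and 314 and 129 (-1.28) at the other. Mmp14, a membrane-bound collagenase, gave 0.08 and -1.10. The proteoglycan biglycan (Bgn) was lower at all 3 of its probe sets, with log2 ratios of -0.37, -0.47 and -1.73, and its relative decorin (Dcn), with signals of 4641 and 7261, gave 0.65.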
